A study of Mus musculus with 21 samples.

Results

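Polymorphonuclear neutrophils (PMNs) were compared between mice that received remote ischemic preconditioning (RIPC) and mice that received the control procedure, in both cases before renal ischemia-reperfusion injury (IRI). The comparison rests on 5 of the 21 RNA-Seq libraries of the series, 3 of them labelled PMNs IRI RIPC and 2 labelled PMSs IRI Control, and these libraries were taken by their labels alone. All mice were wildtype, and the study's methods describe male C57BL/6 mice aged 8 to 12 weeks. IRI was a clamping of both renal pedicles for 32 minutes, and RIPC was an inflation of a hind limb cuff repeated 3 times for 5 minutes before the clamping, whereas the cuff of the control mice was inflated to a low pressure. The neutrophils were taken 24 hours after surgery, and the labels give blood as their tissue, so nothing here describes neutrophils recovered from the kidney. PMNs after sham surgery, in which no clamp was set, served as background with 2 control libraries and 3 RIPC libraries. The study describes its libraries as biological replicates and takes animals as the unit of its in vivo experiments. The p-values of the main fit rest on the spread between all 10 PMN libraries, sham libraries included.

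Neutrophils are short-lived phagocytes that leave the blood along gradients of chemokines, complement fragments and formylated peptides. Danger signals such as HMGB1 and bacterial products act on Toll-like receptors, whose adaptors activate the IκB kinases. These kinases mark the inhibitory IκB proteins for destruction, which frees NF-κB dimers to enter the nucleus. NF-κB then induces cytokines and chemokines, proteins that prolong neutrophil life, and its own inhibitors, IκBα among them, so that the signal limits itself.

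The promoters of several of these genes carry the motif to which NF-κB binds, and a few are shown so that the motif can be seen in inhibitors and targets described with their values further on, whether or not the groups of that gene were separate. The sequences were read from RefSeq promoters on GRCm38.p6, in the 250 bases before a start site, and are given 5′ to 3′ on the strand of the gene, with capitals for the bases covered by a match to the NF-κB consensus motif on either strand. Ccrl2 lay at chr9:111057550-111057589 on the minus strand, upstream of 1 of its 3 starts, and the match began 56 bases before that start. Nfkbid lay at chr7:30422210-30422249 on the plus strand, also upstream of 1 of 3 starts, and Nfkbia at chr12:55492652-55492691 on the minus strand. Their matches began 181 and 29 bases before the start. Tnip1 lay at chr11:54962972-54963011 on the minus strand, Cxcl2 at chr5:90903788-90903827 on the plus strand and Il6 at chr5:30013055-30013094 on the plus strand.
Ccrl2: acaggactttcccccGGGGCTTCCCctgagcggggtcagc
Nfkbid: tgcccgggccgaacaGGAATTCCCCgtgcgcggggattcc
Nfkbia: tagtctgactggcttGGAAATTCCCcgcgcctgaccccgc
Tnip1: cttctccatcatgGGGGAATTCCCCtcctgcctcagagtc
Cxcl2: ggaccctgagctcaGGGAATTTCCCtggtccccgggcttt
Il6: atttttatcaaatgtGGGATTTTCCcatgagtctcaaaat

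A match was present for 11 of the 24 NF-κB target genes with a promoter in the table (45.8%) and for 7 of the 13 inhibitors (53.8%), against 8.23% of all 27025 genes. These lists hold genes chosen for their link to NF-κB, so their shares do not bear on RIPC. The window of Ccl3, Tnf, Il1b, Clec4e, Gadd45b and Marcksl1 held no match, and neither did those of Smad3, Mfap3l and Oma1. Among the other lists, 6 of 13 interferon-stimulated genes had a match (46.2%) and 2 of 16 survival genes (12.5%). A match describes letters in a window and was not tested as a binding site.

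The IRI libraries held 25661853 and 30507235 reads in the control group and between 29259846 and 29579203 in the RIPC group. The limit of 3 reads set for a count of 0 concerns the counting of reads alone, and amplified reads were not tied to single molecules. Standard errors and the 95% interval come from the edgeR fit described below, which takes the spread between all 10 PMN libraries, sham libraries included. The common coefficient of variation between libraries by edgeR was 1.648 over the 4 PMN groups (25002 genes). It was 1.392 over both IRI groups alone (19701 genes). The mean Spearman correlation between libraries over 25002 genes was 0.671 within the IRI control group, 0.667 within the IRI RIPC group and 0.668 between them, so the RIPC libraries were as like the control libraries as each other. The sham PMN groups were less alike, at 0.558 and 0.566, whereas the tubular epithelial groups of the series lay between 0.693 and 0.802. These correlations share genes with many low counts and are descriptive. Levels are given as CPM, the normalised read count scaled to the size of the library. Among genes with a mean of 1 to 10 CPM, 32.5% had at least 100 reads in one RIPC library and 0 in another, a share that dropped to 7.57% between 10 and 100 CPM and to 0.0806% between 100 and 1000 CPM.

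Neutrophil markers were high in all 5 libraries, and their summed level was 26220 and 32620 CPM in the control libraries and 30170, 42570 and 26330 CPM in the RIPC libraries. S100a8, a calcium-binding protein that fills the neutrophil cytosol, had 4022 and 4727 CPM against 5283, 8621 and 2912 CPM. The 8 markers of bone marrow precursors had a median log2 fold change of 1.32, with 7 above 0. In every library 3 were higher after RIPC and none lower, beside 6.41% and 10.1% of all genes. Most were low, since the median of their mean levels was 12.4 CPM and 1 had at least 100 CPM. The 3 higher in every library were Mpo, Prtn3 and Camp, and Ctsg, another precursor gene, had reads in RIPC replicate 3 alone. The part of such cells in the results was not tested. Markers of other cells were present as well. The 11 kidney tubule markers summed to 2297 and 2403 CPM in the control libraries and to between 2065 and 2625 CPM in the RIPC libraries. The 2 sham control libraries had 3085 and 28060 CPM. The 12 markers of monocytes and macrophages summed to 2776 to 2843 CPM and 2010 to 4077 CPM, the globins to 44.8 and 351 CPM against 11.9 to 68.5 CPM, and markers of B cells, T and NK cells, endothelium, and eosinophils and basophils to less than 100 CPM in every library, with Gzma and Prg2 at 0 reads. The tubule, B cell, T and NK cell, endothelial and platelet sums overlapped between the groups. In bulk RNA, fewer cells of a type and less RNA per cell cannot be told apart.

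**Figure D1:**
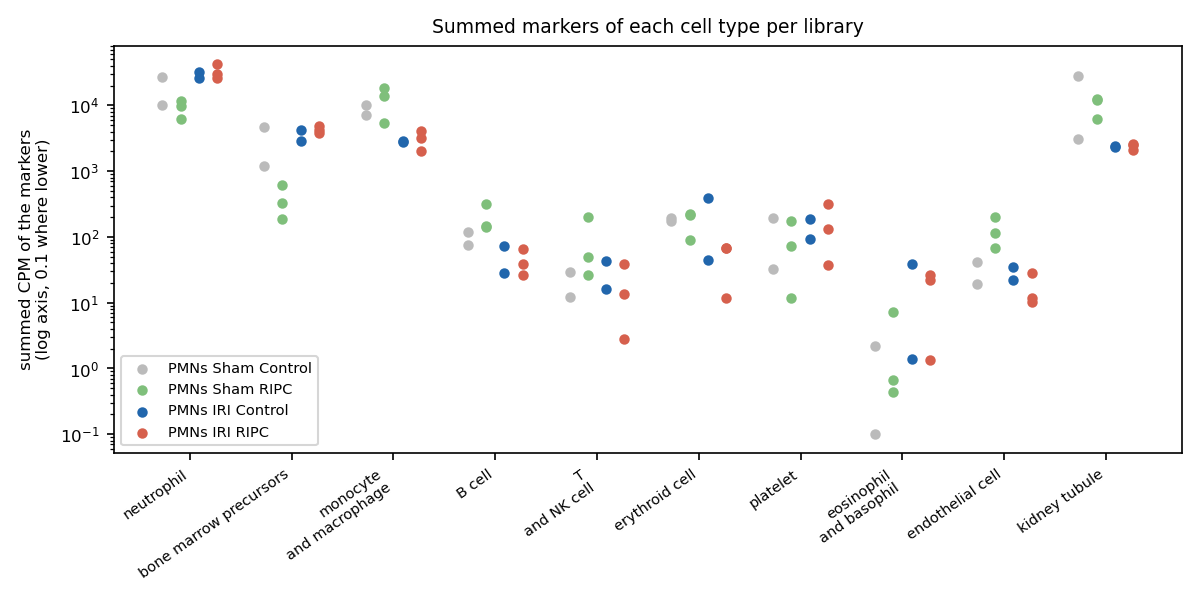
Summed CPM of the marker genes of each cell type (log axis) in every PMN library, colored by group, with each point 1 library. Neutrophil markers lie between 26220 and 42570 CPM in the 5 IRI libraries, and the kidney tubule markers, between 2065 and 2625 CPM, do not separate the IRI control from the IRI RIPC libraries.

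RIPC replicate 3 stood apart from RIPC replicates 1 and 2 in several groups of genes. Against the mean of the controls on the log2(CPM + 1) scale, the median member of the granule list was lower by 0.43 in replicate 3 and higher by 0.40 and 0.47 in the other RIPC libraries. The NADPH oxidase subunits gave 0.18, 0.29 and −0.53, and the interferon-stimulated genes 1.02, 0.63 and −0.84. The NF-κB targets did not split in this way, with medians of 0.39, 0.71 and 0.41, and the survival genes gave 0.22, 0.24 and 0.25. Marker lists moved with replicate 3 too, with medians of 0.37, −0.25 and −1.16 for monocytes and macrophages, 0.01, 0.34 and −0.42 for neutrophils and 0.90, 0.44 and 1.64 for bone marrow precursors. Their part in the lower levels of replicate 3 was not tested.

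Across all 25002 genes tested, edgeR's quasi-likelihood test with Benjamini-Hochberg adjustment called no gene between RIPC and control after IRI (0.0%), and the smallest adjusted p was 0.92. At an unadjusted p under 0.05 there were 680 genes (2.72%), 210 higher after RIPC (0.84%) and 470 lower (1.88%). The Wald test of DESeq2 called 431 genes (1.72%, with 1.19% higher after RIPC). DESeq2 with apeglm called 39 in the fit of all 4 PMN groups (0.156%, with 0.14% higher) and 326 in the fit of the compared groups alone (1.65%, with 1.33% higher). Every adjusted p of a gene named below lay between 0.92 and 1 in the edgeR fit, and the comparison is therefore described by the values of the libraries and by whether the groups overlapped. A gene is called higher after RIPC in every library where its lowest RIPC value exceeded both controls. That held for 6.41% of all genes and the reverse for 10.1%, together 16.5%. Among the 8241 genes with a mean of at least 10 CPM the shares were 10.5% and 9.21%, together 19.8%, and among the 1359 genes of at least 100 CPM they were 14.3% and 4.78%, together 19.1%. The median log2 fold change was 0 over all genes and 0.10 over those of at least 100 CPM.

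Of the 31 inflammatory NF-κB target genes, all of which passed the filter on low counts, 28 had a log2 fold change above 0 and none passed the adjusted threshold. In 10 of them every RIPC library lay above both control libraries, and in 1 every RIPC library lay below, where 6.41% and 10.1% of all genes did so. This list, like the others, was drawn up with earlier results of these data known. Of the 22 targets with at least 100 CPM, 9 were higher after RIPC in every library and none lower, to be read against 14.3% and 4.78% of genes at that level. The median log2 fold change of the list was 0.58, or 0.53 with Ptx3, which had 5 reads in 1 RIPC library and none elsewhere, held at the limit that a count of 0 allows (3 reads). The summed level of the targets was 15540 and 22990 CPM in the controls and 23550, 30620 and 32670 CPM after RIPC. Without control replicate 2 the count of targets higher in every library was 19, without RIPC replicate 3 it was 16, and without any of the other libraries it lay between 10 and 14. The share of all genes of at least 100 CPM moved as well, to 38.7% without control replicate 2 and to between 20.7% and 25.5% without any other library. Without control replicate 1, 3 targets and 17.6% of those genes were lower after RIPC in every library. Over all 25002 genes the shares higher in every library were 15.2% without control replicate 2, 14.6% without control replicate 1 and between 12.0% and 12.8% without any 1 RIPC library, and the shares lower were 26.6%, 24.4% and between 15.4% and 15.7%.

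**Figure D2:**
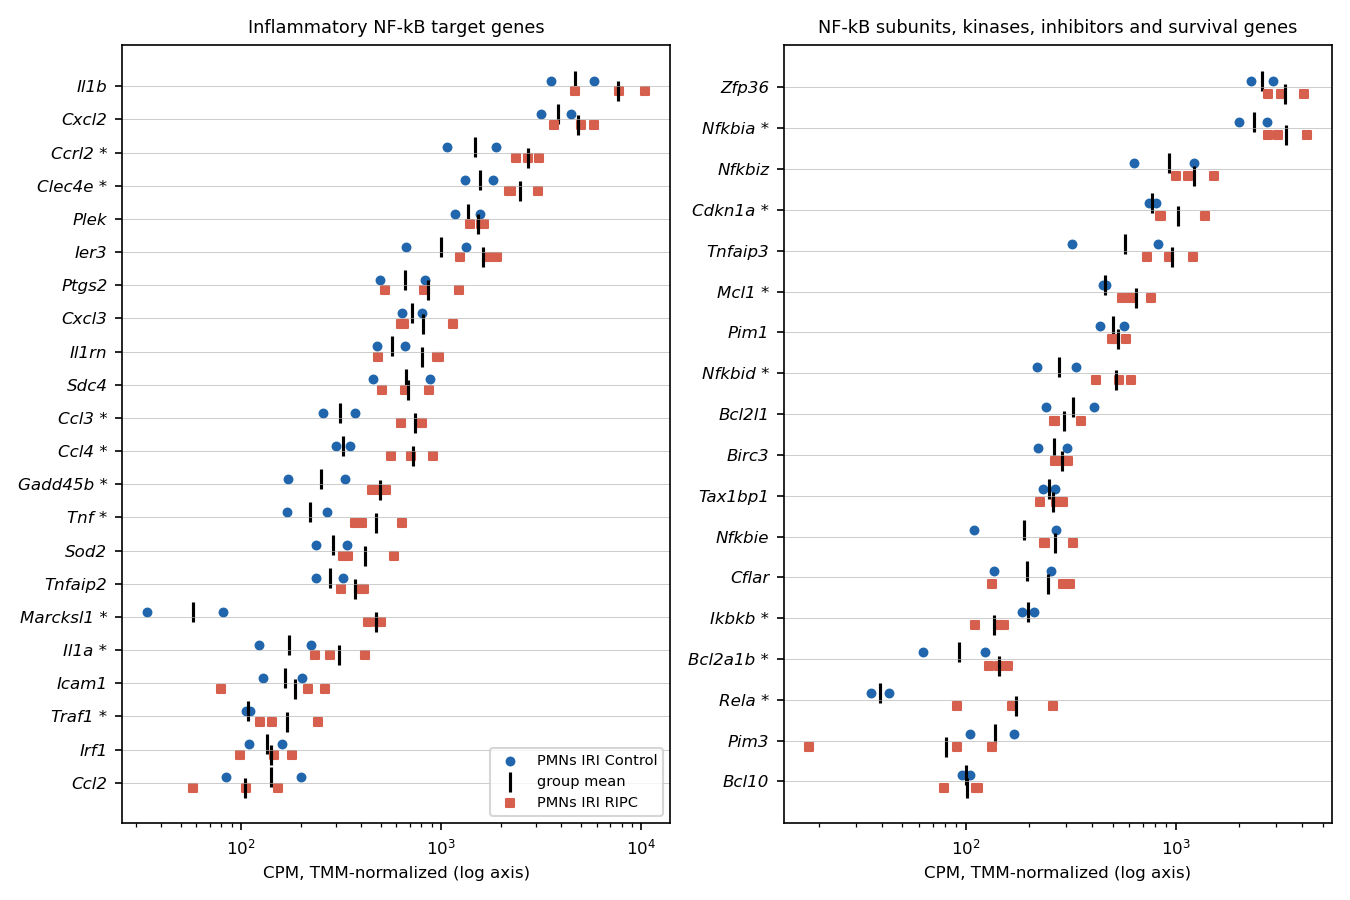
CPM (log axis) of the members with a mean of at least 100 CPM in each IRI library, with a circle for each control and a square for each RIPC library, and a black bar for the group mean. Genes with an asterisk had groups that did not overlap, 9 of the 22 targets on the left among them.

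Among the chemokines, Ccl3, which attracts monocytes and other leukocytes, had 258 and 371 CPM in the controls and 632, 779 and 807 CPM after RIPC. Ccl4, a related chemokine that lies beside Ccl3 on chromosome 11, had 300 and 351 CPM against 708, 912 and 560 CPM. In both, the lowest RIPC library exceeded the higher control. The edgeR log2 fold change was 1.23 ± 0.47 (SE, unadjusted p = 0.0262) for Ccl3 and 1.16 ± 0.55 (unadjusted p = 0.064) for Ccl4, with an adjusted p of 0.92 for both.

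Ccrl2, a receptor that binds chemerin without signalling, was the target with the smallest standard error. It had 1067 and 1881 CPM in the controls and 2385, 2722 and 3078 CPM after RIPC, from 25740 to 79979 reads. The groups did not overlap, and the log2 fold change was 0.89 ± 0.32 (unadjusted p = 0.0218, edgeR adjusted p = 0.92). Its 3 transcripts kept their shares of the reads, with between 78.8% and 81.3% on the transcript Ccrl2-203 in every library.

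Marcksl1, a protein that links membrane and actin, differed most among the targets with reads in every library. Its level was 81.4 and 33.9 CPM in the controls and 504, 485 and 434 CPM after RIPC, a log2 fold change of 3.04 ± 1.03 (unadjusted p = 0.0159, edgeR adjusted p = 0.92). Each RIPC library exceeded both controls. Gadd45b, a stress-induced regulator of MAP kinase signalling, had 172 and 330 CPM against 451, 501 and 531 CPM and a log2 fold change of 0.98 ± 0.46 (unadjusted p = 0.0643, edgeR adjusted p = 0.92).

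The cytokines split into those with and without overlap. Tnf, the gene of tumor necrosis factor, had 271 and 171 CPM in the controls and 638, 372 and 404 CPM after RIPC, and its log2 fold change of 1.09 had a standard error of 1.23. Il1a had 123 and 225 CPM against 416, 281 and 235 CPM. Neither gene's groups overlapped, though the lowest RIPC value of Il1a was close to the higher control.

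Il1b, the most abundant target by CPM, had 3569 and 5803 CPM in the controls and 4675, 7810 and 10530 CPM after RIPC. Its RIPC replicate 1 lay below control replicate 2, so the groups overlapped, and the log2 fold change was 0.71 ± 0.38 (unadjusted p = 0.0907, edgeR adjusted p = 0.92). Cxcl2, a chemokine that calls neutrophils through CXCR2, also overlapped, with 3174 and 4491 CPM against 3680, 5813 and 5003 CPM. Per length, the mean level was 2238 TPM in the controls and 3564 TPM after RIPC for Il1b, and 2655 and 3446 TPM for Cxcl2. Cxcl1, a further ligand of CXCR2, was much lower, at 41.6 and 45.4 CPM against 68.3, 164 and 54.5 CPM, without overlap.

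Clec4e, the receptor Mincle for damaged cells and mycobacteria, had 1327 and 1819 CPM against 2188, 2237 and 3043 CPM, and Traf1, an adaptor of TNF receptors, 106 and 111 CPM against 143, 124 and 244 CPM. Both were higher after RIPC in every library. Il6, the cytokine of the acute phase response, was the target that lay lower in every library, with 19.4 and 8.78 CPM in the controls and 2.06, 0 and 6.70 CPM after RIPC. Its log2 fold change of −2.27 had a standard error of 2.83.

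Of the 14 inhibitors of NF-κB, 13 had a log2 fold change above 0, and in 4 every RIPC library exceeded both controls, where the shares of all genes were 6.41% and, from 100 CPM on, 14.3%. The median log2 fold change was 0.56. Without control replicate 2, 9 inhibitors were higher in every library, and without RIPC replicate 1 there were 7. The shares were 15.2% and 12.0% of all genes, and 38.7% and 20.7% of those from 100 CPM on, a level that 7 of the 14 reached. Without RIPC replicate 3, 2 inhibitors were lower in every library, beside 15.4% of all genes and 9.71% of those from 100 CPM on. Nfkbia, which encodes IκBα, had 2007 and 2700 CPM in the controls and 2729, 3075 and 4209 CPM after RIPC, with a lowest RIPC value barely above the higher control (log2 fold change 0.50 ± 0.50). Nfkbid, a nuclear IκB protein, had 218 and 336 CPM against 535, 611 and 416 CPM, a log2 fold change of 0.91 ± 0.42 (unadjusted p = 0.0591, edgeR adjusted p = 0.92). The groups of Nfkbid were separated by a wider gap than those of Nfkbia. Tnip1, a partner of the ubiquitin editor A20, had 32.5 and 47.9 CPM against 84.0, 51.8 and 109 CPM, and Bcl3 0 and 14.8 CPM against 40.2, 52.1 and 14.9 CPM. Tnfaip3, the gene of A20 itself, overlapped at 320 and 823 CPM against 923, 732 and 1211 CPM.

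Among the 5 NF-κB subunits Rela alone separated the groups, 1 of 5 beside 6.41% of all genes. Rela, which encodes the p65 subunit, had 35.4 and 43.0 CPM in the controls and 90.9, 166 and 262 CPM after RIPC, and its log2 fold change of 2.14 had a standard error of 1.76. The 3 RIPC libraries of Rela lay farther from each other than the controls did. Nfkb1, Nfkb2 and Rel overlapped, for example at 37.8 and 53.8 CPM against 109, 35.4 and 96.5 CPM for Nfkb1. Of the 11 kinases and adaptors tested, 5 were higher in every library without control replicate 1. The shares were then 14.6% of all genes and 25.5% of those from 100 CPM on. With all libraries, 1 was higher in every library and 1 lower, near the 6.41% and 10.1% of all genes. Malt1, a protease downstream of immune receptors, was the higher one at 29.0 and 37.5 CPM against 116, 153 and 108 CPM (log2 fold change 1.92 ± 0.94, unadjusted p = 0.0711, edgeR adjusted p = 0.92). Ikbkb, the catalytic kinase IKKβ, lay lower in every library at 210 and 185 CPM against 152, 111 and 146 CPM. Its log2 fold change was −0.54 ± 0.78 and turned to 0.19 in a fit with an offset for the length of the transcripts used in each library. The reads of Malt1 changed transcript between libraries, with 22.1% and 15.6% of the control reads and 43.9%, 88.4% and 53.7% of the RIPC reads on Malt1-201.

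**Figure D3:**
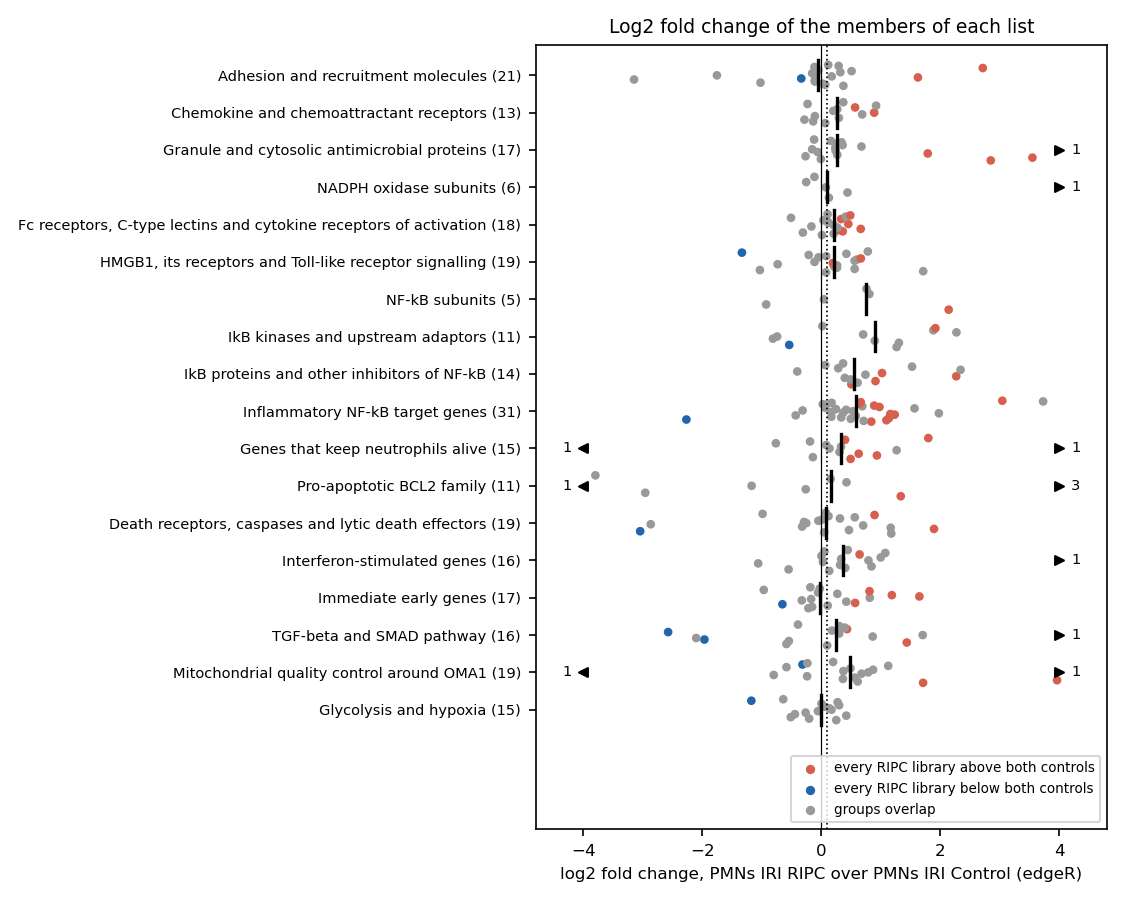
Log2 fold change of RIPC over control after IRI for each tested member of 18 lists, by edgeR, with the list's median as a bar, a solid line at 0 and a dotted line at the median of 0.10 of genes of at least 100 CPM. Triangles count members beyond 4 in either direction, most of them genes with few or no reads in a group, and the NF-κB targets and inhibitors have medians of 0.58 and 0.56.

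The genes of activation at the cell surface were measured in 3 lists. Among 13 chemoattractant receptors, Ccrl2 and C5ar1 were higher after RIPC in every library and none was lower, and the median log2 fold change was 0.27. At 2 of 13, or 2 of the 9 with at least 100 CPM, the count was near the 14.3% of genes at that level. Of the receptors, 8 were higher in every library without control replicate 2 (38.7% of genes from 100 CPM on), and 4 without RIPC replicate 2 or 3 (23.0% and 23.1%). Without control replicate 1, 5 were lower (17.6%). C5ar1, the receptor of the complement fragment C5a, had 1158 and 1278 CPM against 1908, 2156 and 1349 CPM (log2 fold change 0.57 ± 0.43). The receptors that guide neutrophils into tissue and back to the marrow overlapped, with 654 and 860 CPM against 515, 722 and 828 CPM for Cxcr2 and 85.5 and 71.2 CPM against 68.5, 88.6 and 36.0 CPM for Cxcr4.

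Of the 18 Fc receptors, C-type lectins and cytokine receptors, all above 100 CPM, 6 were higher after RIPC in every library and none was lower, beside 14.3% and 4.78% of genes of that level. The 6 were Il1r2, Clec4e, Clec4d, Fcer1g, Tnfrsf1b and Syk, and the median of the list was 0.21. Without control replicate 2 the count was 11 (38.7% of genes from 100 CPM on), and without control replicate 1, 5 were lower in every library (17.6%). Il1r2, the decoy receptor of interleukin-1, had 5896 and 6372 CPM against 6833, 7563 and 8782 CPM, and Fcer1g, the signalling chain of Fc receptors, 773 and 990 CPM against 1106, 1174 and 1111 CPM. Their log2 fold changes were 0.33 ± 0.69 and 0.36 ± 0.41, within the error of the fit. Tnfrsf1b, the TNF receptor TNFR2, had 430 and 457 CPM against 625, 696 and 545 CPM.

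Among 21 adhesion molecules the median was −0.05, and Rac1 and Itgb1 were higher in every library while Itga4 was lower. These 2 and 1 of 21 stand beside 6.41% and 10.1% of all genes, and beside 14.3% and 4.78% of genes from 100 CPM on, near that background. Rac1, a GTPase that drives actin and the NADPH oxidase, had 59.7 and 46.4 CPM in the controls and 238, 351 and 454 CPM after RIPC (log2 fold change 2.71 ± 0.90, unadjusted p = 0.0145, edgeR adjusted p = 0.92). The sham means of Rac1 were 298 CPM in control and 93.9 CPM in RIPC libraries. The count of adhesion molecules higher in every library was 8 without control replicate 2 and 6 without RIPC replicate 3, beside 38.7% and 23.1% of genes from 100 CPM on, and without control replicate 1, 7 were lower, beside 17.6%. Daglb overlaps Rac1 on the opposite strand and had at most 2136 reads. The counting is not stated to use strand, so this pair, Junb and Prdx2, Myd88 and Acaa1a, Il1b and Il1bos, and Tmem176b and Tmem176a cannot be separated with certainty. Itgam and Itgb2, the subunits of the integrin Mac-1, overlapped, with 703 and 1321 CPM against 1087, 1196 and 534 CPM for Itgam.

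Granule proteins, of which 17 were tested, had a median of 0.27, and the 3 that were higher in every library, beside 6.41% of all genes, were Mpo, Prtn3 and Camp, genes of bone marrow precursors that stayed below 40 CPM in every library. Mpo, the enzyme of the primary granules, had 0 and 5.99 CPM against 37.2, 8.69 and 18.8 CPM. The abundant granule genes Mmp8, Mmp9, Lcn2 and Ngp overlapped, and without RIPC replicate 3 the count of granule genes higher in every library was 10, beside 23.1% of genes from 100 CPM on. The 6 tested NADPH oxidase subunits overlapped without exception, and their summed level was 2361 and 2707 CPM in the controls and 3053, 3326 and 1989 CPM after RIPC.

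The study asked whether HMGB1 takes part in the response to RIPC, so Hmgb1 and the Toll-like receptor pathway were examined as well. It measured HMGB1 protein in plasma and urine and placed its protective action on TLR4 of tubular epithelial cells. RNA of neutrophils is an unlike measure and does not test that. Hmgb1 itself had 214 and 298 CPM against 296, 211 and 304 CPM, and its log2 fold change of 0.08 had a 95% interval from −1.05 to 1.21. Tlr4 had 34.9 and 105 CPM against 111, 62.3 and 77.7 CPM, and Cd14, its coreceptor, 7895 and 9982 CPM against 9753, 11250 and 11230 CPM. All 3 overlapped. Of the 19 members tested, Myd88 and Irak2, which pass the signal on from the receptors, were higher in every library, and Nod2, a sensor of bacterial cell wall, was lower. These 2 and 1 of 19 were near the 6.41% and 10.1% of all genes. The count of members higher in every library was 9 without control replicate 2, beside 15.2% of all genes and 38.7% of those from 100 CPM on, and without control replicate 1, 4 were lower, beside 24.4% and 17.6%. Myd88 had 183 and 196 CPM against 216, 226 and 207 CPM. The log2 fold change of Irak2 was 0.66 and turned to −0.10 with the offset for transcript length.

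Of the 15 survival genes tested, 5 were higher after RIPC in every library and none was lower, with a median log2 fold change of 0.33. The shares were 6.41% and 10.1% over all genes and 14.3% and 4.78% over genes from 100 CPM on, where 3 of 8 survival genes were higher. The count was 10 without control replicate 2, beside 15.2% and 38.7%, and without control replicate 1, 4 were lower in every library, beside 24.4% and 17.6%. Mcl1, the BCL2 protein on which neutrophil life depends, had 452 and 465 CPM in the controls and 556, 764 and 613 CPM after RIPC. Cdkn1a, which encodes p21, had 742 and 806 CPM against 840, 851 and 1370 CPM. Both separated the groups, but their log2 fold changes of 0.49 ± 0.40 and 0.40 ± 0.63 did not pass the test.

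Pcna, a cytosolic guard against caspases in mature neutrophils, had 12.3 and 12.8 CPM against 26.1, 60.5 and 44.7 CPM (log2 fold change 1.80 ± 0.86, unadjusted p = 0.0669, edgeR adjusted p = 0.92). Bcl2a1a, Bcl2a1b and Bcl2a1d encode nearly the same anti-apoptotic protein A1, and reads cannot be assigned to one copy with certainty. Their summed level was 97.3 and 173 CPM in the controls and 174, 243 and 207 CPM after RIPC, so that the lowest RIPC value lay just above the higher control. Bcl2l1, Birc3 and Cflar overlapped, and Bcl2l2 had reads in 2 of the 3 RIPC libraries and in neither control.

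The 11 pro-apoptotic BCL2 genes gave a median of 0.16, and 2 were higher in every library beside 6.41% of all genes. Bax, an executor of mitochondrial apoptosis, had 10.6 and 34.5 CPM against 85.3, 49.2 and 36.1 CPM, higher after RIPC in every library (log2 fold change 1.33 ± 1.09, or 0.73 without control replicate 1 and 2.46 without control replicate 2). Bcl2l11, which encodes BIM and was the most abundant of them, overlapped at 396 and 288 CPM against 339, 386 and 651 CPM. Bbc3, which encodes PUMA, had 0 reads in both controls and 172, 10 and 6 reads after RIPC. Of 19 death receptors, caspases and lytic effectors, Ripk3 and Casp1 were higher in every library and Fadd was lower, and the median was 0.08. These 2 and 1 of 19 stand beside 6.41% and 10.1% of all genes. Without control replicate 2, 9 were higher in every library (15.2% of all genes), and without control replicate 1, 4 were higher and 5 lower (14.6% and 24.4%). Casp1, the inflammatory caspase, had 25 and 0 CPM against 54.5, 25.4 and 59.5 CPM.

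The immediate early genes, which cells induce within minutes of a stimulus, had a median of −0.03 over 17 members. Ier2, Junb, Klf2 and Ier5 were higher in every library, and Jun was lower, beside 6.41% and 10.1% of all genes and 14.3% and 4.78% of those from 100 CPM on. The lower count was 4 without either control and 5 without RIPC replicate 2, beside 24.4%, 26.6% and 15.6% of all genes. Ier2 had 94.2 and 191 CPM against 473, 574 and 293 CPM (log2 fold change 1.65 ± 0.69, unadjusted p = 0.0408, edgeR adjusted p = 0.92), and Jun, a subunit of AP-1, 639 and 658 CPM against 355, 509 and 373 CPM (log2 fold change −0.65 ± 0.33, unadjusted p = 0.0804, edgeR adjusted p = 0.92). Junb, another AP-1 subunit, had 1515 and 2106 CPM against 2176, 2859 and 3015 CPM. Fos and Dusp1 overlapped.

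Interferon-stimulated genes had a median of 0.37 over 16 members. With all libraries 1 of them was higher in every library, beside 6.41% of all genes. Without RIPC replicate 3 there were 9, beside 12.3% of all genes and 23.1% of those from 100 CPM on. Without control replicate 2 there were 4, beside 15.2% and 38.7%. Ifitm3, a membrane protein that blocks virus entry, separated the groups at 207 and 290 CPM against 439, 390 and 334 CPM (log2 fold change 0.64 ± 0.43). Rsad2 and Oas3 overlapped, since RIPC replicate 3 had 9.47 and 2.73 CPM where RIPC replicates 1 and 2 had between 141 and 255 CPM. Glycolysis and hypoxia genes had a median of 0.00, and of their 15 members Vegfa, the endothelial growth factor, was lower after RIPC in every library at 44.6 and 40.0 CPM against 10.4, 25.9 and 19.9 CPM. This 1 of 15 stands beside 10.1% of all genes. The counts rested on single controls, with 7 higher in every library without control replicate 2 (38.7% of genes from 100 CPM on) and 5 lower without control replicate 1 (17.6%).

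Smad3, Mfap3l and Oma1, which the study named for this comparison, had 0 reads in a whole group, and they were chosen on these libraries. Smad3, the transcription factor of TGF-β signalling, had 0 reads in both controls and 464, 613 and 2021 reads after RIPC, all on the transcript Smad3-201. Mfap3l, a membrane protein of unclear role, had 0 reads in both controls and 97, 45 and 96 reads after RIPC. The reads of Mfap3l lay on different transcripts, wholly on Mfap3l-202 in RIPC replicate 1, mostly on Mfap3l-201 in replicate 2 (58.1%) and mostly on Mfap3l-204 in replicate 3 (89.6%). Oma1, a stress-activated protease of the inner mitochondrial membrane, had 266 and 177 reads in the controls and 0 in the RIPC libraries.

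Such genes were not rare. There were 140 genes with 0 reads in both controls and more than 3 in each RIPC library (0.56%), and 368 with the reverse (1.47%). In the sham groups the 3 genes had reads with and without RIPC, with mean levels of 3.25 and 16.2 CPM for Smad3, 6.47 and 15.2 CPM for Mfap3l and 7.70 and 22.7 CPM for Oma1 in control and RIPC libraries. Of the rest of the TGF-β and SMAD pathway, 16 members in all, Tgfbr2, Skil and Smad3 itself were higher in every library and Smad1 and Smad7 lower, beside 6.41% and 10.1% of all genes. Without control replicate 2 there were 7 higher and 5 lower, beside 15.2% and 26.6%. Tgfbr2, the receptor that binds TGF-β, had 34.0 and 34.8 CPM against 57.0, 155 and 67.7 CPM (log2 fold change 1.44 ± 0.88). Around Oma1, 19 genes of mitochondrial quality control, Oma1 among them, gave a median of 0.49. In every library 3 were higher and 2 lower, Oma1 itself included, beside 6.41% and 10.1% of all genes. Without control replicate 2 there were 8 and 4, beside 15.2% and 26.6%. Stoml2, a scaffold of the inner membrane, had 19 and 2 reads in the controls and 755, 1294 and 1027 reads after RIPC, and Opa1, a substrate of OMA1 that fuses the inner membrane, 0 and 20.7 CPM against 36.3, 35.4 and 29.8 CPM.

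Outside the lists, the genes with the smallest p-values and at least 10 CPM were taken by rank. Spi1, which encodes PU.1, a master regulator of the myeloid lineage, had 50.0 and 90.1 CPM in the controls and 543, 637 and 645 CPM after RIPC (log2 fold change 3.12 ± 0.81, unadjusted p = 0.00373, edgeR adjusted p = 0.92). Its sham means, 263 and 176 CPM, lay between these. Snx18, a protein of membrane trafficking, had 75.5 and 63.8 CPM against 250, 415 and 548 CPM (log2 fold change 2.54 ± 0.68), and Stambp, a deubiquitinase of endosomes, 24 and 13 reads against 1420, 548 and 1099 reads. Gm21284 overlaps Stambp on the opposite strand, with 783 reads in RIPC replicate 2 and 20 to 29 in the other libraries. The reads of this pair cannot be separated with certainty. Tmem176b, a membrane protein of myeloid cells, was lower at 95.2 and 117 CPM against 36.2, 24.3 and 37.4 CPM (log2 fold change −1.70 ± 0.49, unadjusted p = 0.0073, edgeR adjusted p = 0.92). Sirt3 and Dis3l2 had reads in both controls, 1653 and 153 for Sirt3 and 843 and 803 for Dis3l2, and none after RIPC. Both share their place with genes of higher counts. Gm29055 lies in Dis3l2 on the same strand with 3973 to 5193 reads in the 5 libraries, and Ric8a and Psmd13 overlap Sirt3 on the opposite strand with 1472 to 4264 reads, so the reads of Sirt3 and Dis3l2 cannot be assigned with certainty. The other genes of these ranks included Cyp2d26, Osbpl1a, Fam210a, Mgat4b and Galk1 on the higher side and Tmem52b, Calb1, Slco2b1, Emilin1, E230001N04Rik and Dpagt1 on the lower side. Calb1, a gene of the distal tubule, had 324 and 1369 reads against 0, 0 and 8 reads, and the part of such cells in the result was not tested.

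C1qc, the C chain of complement C1q and a macrophage marker, had 10.9 and 10.2 CPM in the controls and 257, 259 and 24.6 CPM after RIPC (log2 fold change 4.10 ± 1.25, unadjusted p = 0.00935, edgeR adjusted p = 0.92). For the chains C1qa and C1qb, which form 1 protein with it, the groups overlapped. Their summed level was 705 and 540 CPM in the controls and 853, 800 and 162 CPM after RIPC. Of the kidney tubule markers, Aqp1, the water channel of the proximal tubule, was lower after RIPC in every library at 474 and 352 reads against 6, 6 and 8 reads.

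**Figure D4:**
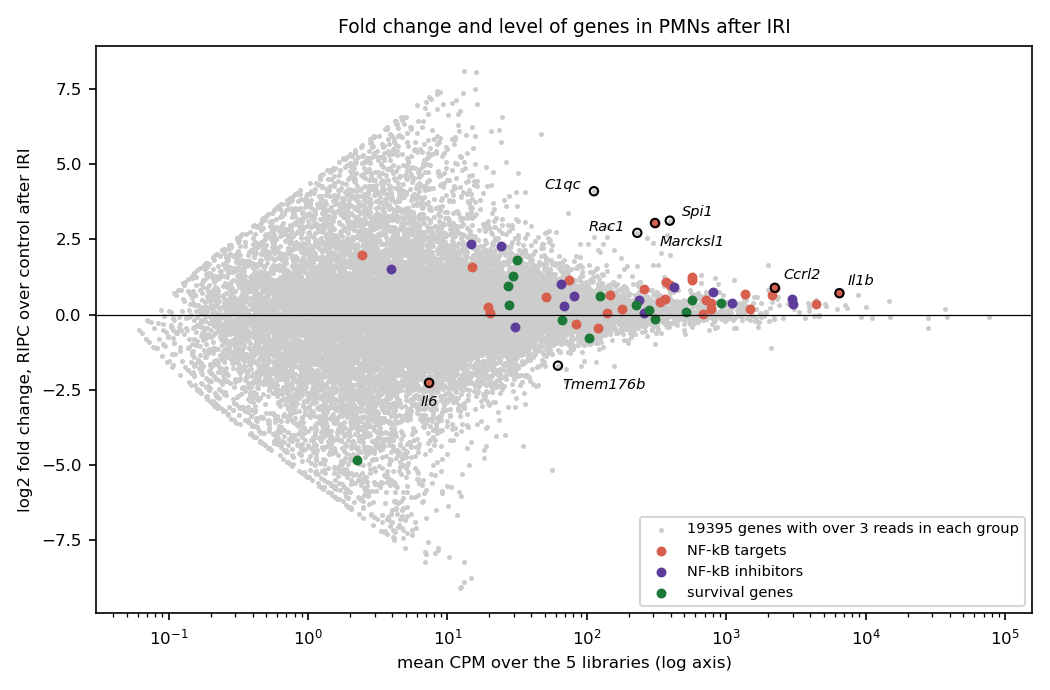
Log2 fold change of RIPC over control after IRI by edgeR against mean CPM over the 5 libraries (log axis), for the 19395 genes with more than 3 reads in each group, with NF-κB targets, NF-κB inhibitors and survival genes in color. Below 10 CPM the values spread over many log2 units, and Marcksl1, Spi1 and Rac1 are labelled at 3.04, 3.12 and 2.71.

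The sham libraries give levels without renal injury, but their cell markers differed from those after IRI. Neutrophil markers summed to 10150 to 27170 CPM in sham control and 6124 to 11750 CPM in sham RIPC libraries. Markers of monocytes and macrophages summed to 7160 to 10020 CPM and 5306 to 18260 CPM. The tubule markers summed to 3085 to 28060 CPM and 6175 to 12610 CPM. The part of this make-up in the sham levels was not tested. Ccrl2 had mean levels of 234 CPM in sham control and 194 CPM in sham RIPC libraries, far below both IRI groups, and Nfkbid had 63.3 and 34.3 CPM. The summed NF-κB targets lay between 4877 and 6067 CPM in sham control and between 3465 and 5842 CPM in sham RIPC libraries, and the inhibitors between 1328 and 3697 CPM and between 2238 and 2821 CPM. Ccl3 differed from them, since its sham means of 232 and 337 CPM were close to the IRI control mean of 314 ± 80.0 CPM (SD, n = 2). The RIPC by surgery interaction, which asks whether the effect of RIPC after IRI differs from that after sham surgery, called 0 of 25002 genes with edgeR (0.0%, smallest adjusted p = 0.194), with 1434 genes at an unadjusted p under 0.05 (5.74%), and 812 genes by the Wald test of DESeq2. By edgeR the effects after IRI and after sham surgery were not shown to differ for any gene.

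**Figure D5:**
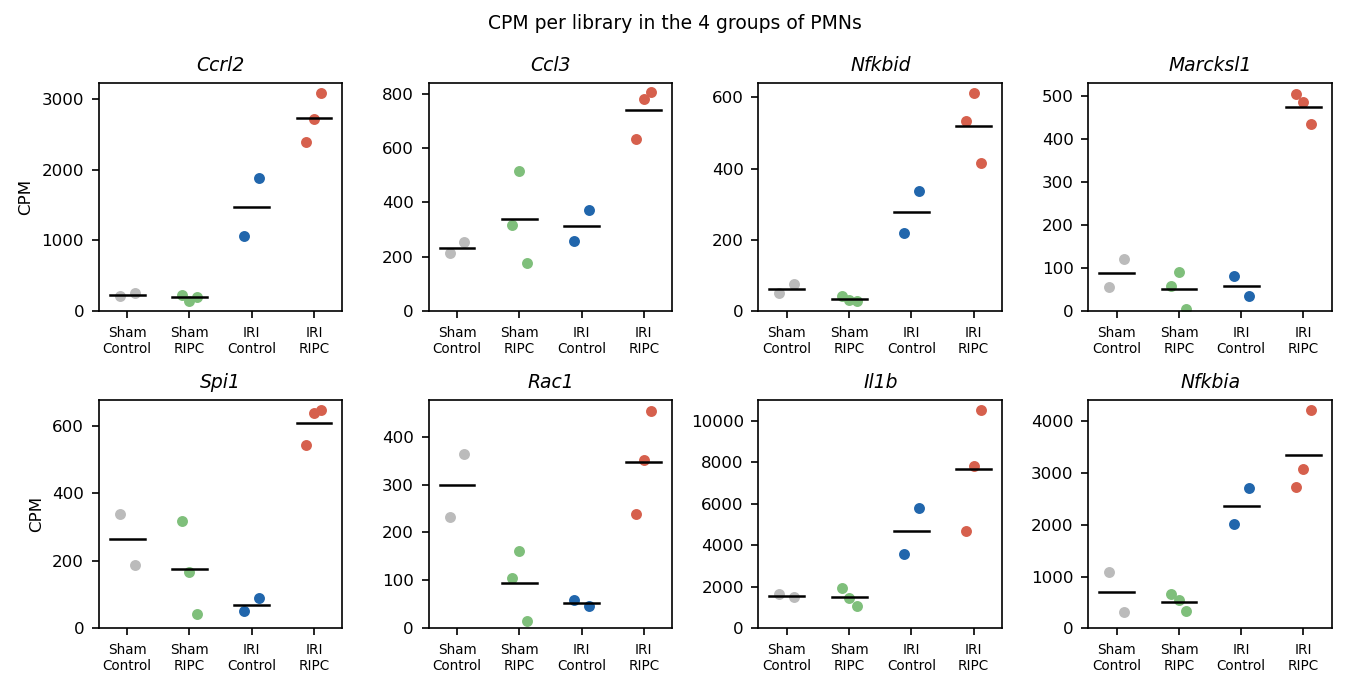
CPM of 8 genes in every PMN library by group, with 1 point for each library and a bar for the group mean. In Ccrl2, Nfkbid and Nfkbia both IRI groups lie above the sham groups, whereas Marcksl1 has sham means of 88.5 and 51.5 CPM, IRI control values of 81.4 and 33.9 CPM, and 434 to 504 CPM after RIPC and IRI.

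The tools differed on the members. Of 279 members of the pathway lists tested, the Wald test of DESeq2 called Smad3, Mfap3l and Stoml2 (1.08%, against 1.72% of all genes). DESeq2 with apeglm, which shrinks fold changes and calls genes at an s value under 0.01, called Smad3 and Stoml2 in the fit of all PMN groups (0.717%, against 0.156% of all genes). In the fit of the compared groups alone it called 14 of 273 members, all of them higher after RIPC (5.13%, against 1.65% of all genes and 4.78% of genes of at least 100 CPM). They were Ccl3, Ccl4, Ccrl2, Ier2, Malt1, Marcksl1, Nfkbid, Pcna, Rac1, Rela, Smad3, Stoml2, Tnf and Tnfrsf1b. Smad3 and Mfap3l were named by the study from these same libraries, so shares that count them are not independent of the data. With edgeR on the compared groups alone no gene was called, and the smallest adjusted p was 0.827.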

How the data were processed

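RNA-Seq was performed by the authors on poly(A)-primed, template-switched and PCR-amplified cDNA, with trimming by Trim Galore 0.6.4 and quantification by Salmon 1.0.0 (versions from the submitters' processing notes), and the authors deposited estimated counts per transcript, not normalized, with TPM values and effective lengths. TPM, also as deposited, served to set levels of different genes side by side, and effective lengths served for 1 alternative. Each library came in 2 files, which differed by less than sampling noise and were added as 1 library. Transcripts were assigned to genes with Gencode M21 of GRCm38, whereas the study names vM23, and 884 of 140748 transcripts had no match. Counts were summed per gene and rounded. Sex-linked and mitochondrial genes were not tested.

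The main test was edgeR 4.0.16 (limma 3.58.1, R 4.3.3), quasi-likelihood, over the 10 PMN libraries with 1 mean per group, TMM and filterByExpr, with Benjamini-Hochberg adjusted p under 0.05. CPM values are TMM-normalized. Alternatives used DESeq2 1.42.0, apeglm 1.24.0, other filters, normalizations and files, a replicate block, and each library left out. Tests were checked on simulated counts. Depth in the IRI groups was 25661853 to 30507235 reads. Named by rule were Smad3, Mfap3l and Oma1, members of the 18 lists, and the 10 genes per direction with the smallest p-values among those without overlap, also from 10 CPM on. A few genes that the rule takes are not reported here. The members and lists were chosen with earlier results of these data known. No column of the authors' own comparisons was used.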

Additional observations from a re-analysis of the deposited data

How the results depend on the processing

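For RIPC against control after IRI in PMNs, edgeR called 0 genes in every fit but the fit without a filter on low counts, which called 18, of which 3 were higher and 15 lower, with 1537 genes at an unadjusted p under 0.05. For the RIPC by surgery interaction in PMNs that fit called 101, with 2526 at an unadjusted p under 0.05. It tested 38823 genes in place of 25002. The Wald test of DESeq2 called 431 genes and 812 for the interaction, and DESeq2 with apeglm called 39 with all PMN groups and 326 with the compared groups alone. Leaving out each library in turn gave 0 calls throughout, with 422 to 603 genes at an unadjusted p under 0.05 (681 to 1666 for the interaction). No pairing by the replicate numbers of the labels was seen, as the deviations of same-numbered IRI libraries correlated at −0.0226 and −0.0325. With 2 controls their deviations mirror each other, so these correlations cannot exclude a pairing. The replicate block gave 0 calls, with 440 genes at an unadjusted p under 0.05 in place of 680, and 713 in place of 1434 for the interaction. The median log2 fold change of all genes was 0.08 with DESeq2's size factors, 0.10 by the Wald test, −0.10 with the block, 0.11 without IRI control replicate 1 and 0.20 without IRI control replicate 2. Ikbkb turned from −0.54 to 0.19 and Irak2 from 0.66 to −0.10 with the offset for transcript length, and the cause was not tested. Of the other values of named genes under an alternative, 750 kept their direction and side of the threshold and 32 passed it, among them Smad3 and C1qc without the filter on low counts. Of the log2 fold changes printed, some moved by over 1.5 times when 1 library was left out. Leaving out 1 or the other IRI control moved Ccrl2 (0.54 and 1.38), Gadd45b (0.59 and 1.55), Il1b (0.41 and 1.13), Nfkbia (0.31 and 0.76), Bax (0.73 and 2.46) and Fcer1g (0.20 and 0.58), IRI control replicate 1 moved Ifitm3 (0.43), IRI RIPC replicate 2 moved Tgfbr2 (0.89), and IRI RIPC replicate 3 moved Il1b (0.45), Cdkn1a (0.17) and Il6 (−3.72). Hmgb1, at 0.08, changed sign, from −0.14 to 0.37, and the others kept theirs. Of the medians of lists, 236 moved by less than the spread between the RIPC libraries and 48 by more. Over genes of at least 10 CPM the mean Spearman correlation was 0.449 in PMNs Sham Control, 0.502 in PMNs Sham RIPC, 0.716 in PMNs IRI Control, 0.707 in PMNs IRI RIPC and 0.852 in TECs Sham RIPC, 0.704 between the IRI groups and 0.430 between sham and IRI PMNs. The counts of members without each library were chosen after the data had been seen. Below 10 CPM the fold changes spread over many log2 units. A group can be at 0 reads there, and also from 10 CPM on, as for Smad3. The part of depth in this was not tested.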
